A study of Mus musculus with 4 samples.

Results

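The immediate early response genes Fos, Fosb, Fosl1, Fosl2, Jun, Junb, Egr1, Egr2, Atf3 and Ier3 were followed in mouse embryonic fibroblasts (MEFs) labelled as lacking cyclin G2, or both cyclin G1 and cyclin G2. All 10 were found by gene name among the 31806 gene names of the array. Total RNA of MEFs from C57BL/6J mice in logarithmic growth was hybridised to 4 single-color Agilent mouse arrays, all on 1 slide. The groups were CycG2-/- (G2KO), CycG2+/+ (WT of the G2KO comparison), CycG1-/-CycG2-/- (DKO) and CycG1+/+CycG2+/+ (WT of the DKO comparison). Per the methods these were primary cells of midgestation embryos grown in serum, and the labels name no stimulus and not the number of embryos behind each culture. Each group had 1 array, so the differences below have no replicate check and no p-value was computed. The array labelled WT in one comparison was therefore set against that of the other, to show how far cultures of the same labelled genotype differed.

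Immediate early genes are transcribed within minutes of a stimulus such as serum, without new protein synthesis, from transcription factors already present in the cell. Many of their promoters are bound by serum response factor and its ternary complex partners, which are phosphorylated by ERK, or by CREB and ATF proteins. Fos and Jun family proteins pair to form AP-1, Egr1 and Egr2 are zinc finger factors, Atf3 is a stress-induced ATF/CREB family factor, and Ier3 is linked to ERK signaling and cell survival. In growing fibroblasts in serum, these transcripts are usually well below the peak that follows stimulation.

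Levels are given as the background-corrected signal of a probe divided by the 75th percentile of all signals on its array, so a level of 1 is the signal at that percentile. They compare arrays for 1 gene and not genes with each other, because probes differ in brightness. Of the 10 genes, 9 had 1 probe and Fosl2 had 2. All 10 were well above background on all 4 arrays by the scanner software's call. On each array between 65.0% and 72.2% of 39397 probes were. Spots of the same probe within an array had a median SD between 0.0752 and 0.122 on the log2 scale. The log2 ratios between the arrays labelled WT had an SD of 1.01 over 24197 probes. Of the 30 gaps between arrays that were neighbours in the order of a gene's levels, 7 were larger than that SD.

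The labels were checked first. Ccng1, which encodes cyclin G1, was not well above background on DKO, at least 228-fold below its WT. It had a level of 1.98 on the array labelled G2KO and 9.45 on its WT. The Ccng2 levels were 0.0910 on the array labelled G2KO, 0.104 on its WT, 0.0619 on DKO and 0.0806 on its WT, so this probe did not separate the arrays by label. The array labelled G2KO was closer to the WT of the DKO comparison (SD of log2 ratios 0.535) than to its own WT (0.859), and Xist was well above background only on the latter. The study lists Xist, En2, Foxa2 and Sox2 as higher and Pdgfra as lower in G2KO MEFs, so the direction found here on the arrays as labelled opposes the study's. The study attributes its higher Xist to the female origin of those MEFs. The part of embryo sex in the values given here was not tested. En2 was 567-fold lower on the array labelled G2KO than on its WT, Xist, Sox2 and Foxa2 were at least 172-fold, 359-fold and 373-fold lower, and Pdgfra was at least 244-fold higher. The methods describe dye-swapped arrays for G2KO MEFs, so that list may rest on other arrays than these single-color ones. Whether the labels of the 2 arrays of the G2KO comparison were exchanged is not settled by these files, and every direction given for that comparison would turn if they were. The pair with the same genotype would then be the array labelled G2KO and the WT of the DKO comparison, with an SD of 0.535, and 15 of the 30 gaps between neighbouring arrays were larger than that.

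The arrays also differed in markers of other cell types. All 8 mesothelial markers, among them Msln and Wt1, were at least 4-fold higher on DKO than on its WT, with summed levels of 147 on DKO and between 0.581 and 1.57 on the others. Wt1, Upk1b, Upk3b and Lrrn4 were not well above background on those 3. Of 10 fibroblast markers, Pdgfra, Postn, Thy1 and Pdgfrb were at least 4-fold lower on DKO and Dcn was higher. On DKO 9 of the 10 were below its WT, with a median log2 ratio of -1.17. The summed levels ranged from 223 to 408 over the 4 arrays, but such sums are set mostly by the brightest probes. The median log2 level of the 10 was 2.47 on DKO, 4.67 on its WT, 4.02 on the array labelled G2KO and 0.00239 on its WT. The 5 neural progenitor markers summed to 47.6 on the WT of the G2KO comparison and to between 1.11 and 5.16 elsewhere, and Pax6 was not well above background there. Pdgfra and Lum were not well above background on that array either. In the G2KO comparison 5 of the 10 fibroblast markers passed 4-fold, all higher on the array labelled G2KO, with a median log2 ratio of 2.43. These were Pdgfra, Thy1 (115-fold), Postn (19.2-fold), Col3a1 (13.7-fold) and Dcn (log2 ratio 3.39). The summed levels of 4 endothelial markers lay between 3.08 and 4.43. Those of 5 macrophage markers lay between 1.03 on the WT of the DKO comparison and 3.65 on DKO. Against that WT, 4 of the 5 were higher on DKO, 1 of them at least 4-fold, and 1 was lower. The part of these markers in the values of the immediate early genes was not tested. In bulk RNA, fewer cells that express a gene and less RNA per cell cannot be told apart.

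DKO had the lowest level of the 4 arrays for 7 of the 10 genes and the highest for none. Among 19466 genes well above background on all 4 arrays, DKO was lowest for 31.0% and highest for 28.6%. For 4 of the 10 the array labelled G2KO was the highest, and for none the lowest, beside 12.5% and 28.1% of all genes. Its WT was the highest for 5 and the lowest for 1, beside 36.7% and 23.4%. The lowest and highest level differed at least 4-fold for 6 of the 10 genes, and for 11.7% of all genes. These shares describe the 4 arrays and were not tested.

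**Figure D1:**
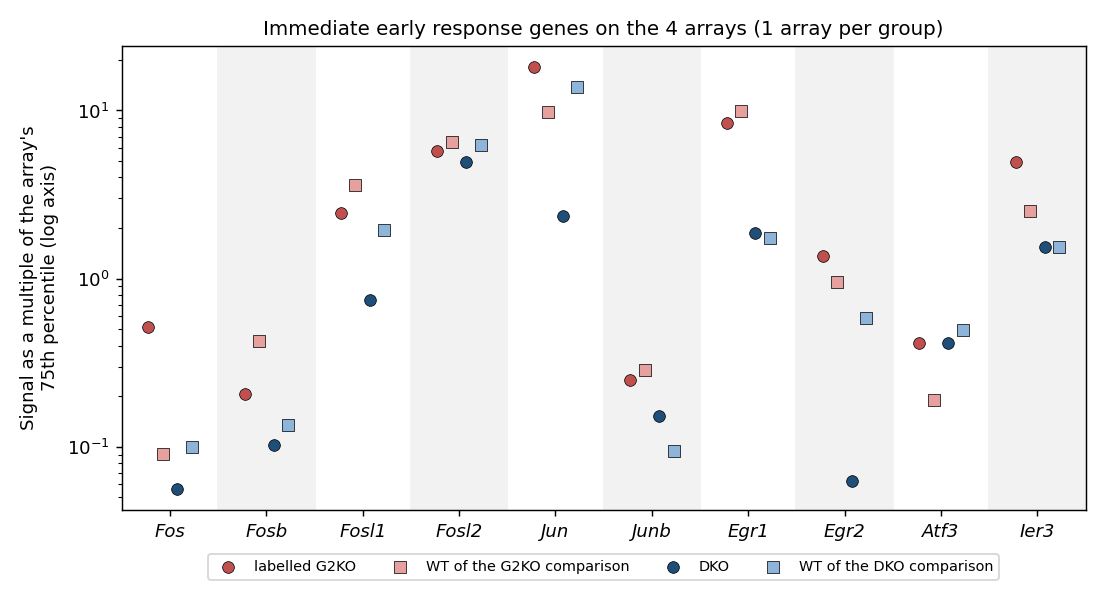
Level of each immediate early response gene on each of the 4 arrays, as a multiple of the 75th percentile of the array, on a log axis; each point is 1 array. The point for DKO lies lowest for 7 genes, with Egr2 at 0.0623 and Jun at 2.36, and the point for the array labelled G2KO stands above the others for Fos, at 0.516.

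Against its WT, DKO had 2 of the 10 genes at least 4-fold lower, Jun and Egr2, and 0 at least 4-fold higher. The background was 4.03% of 22881 genes lower and 4.04% higher. At 2-fold, 3 of the 10 were lower and 0 higher, beside 9.61% and 10.6% of all genes. The median log2 ratio of the 10 genes was -0.37, and that of all genes 0.03. Against its WT, the array labelled G2KO had 1 gene at least 4-fold higher, Fos, and 0 lower, with backgrounds of 3.71% and 2.02% of 22791 genes. At 2-fold, Fos and Atf3 were higher and Fosb was lower, beside 8.74% and 8.37%. The median log2 ratio was 0.17, and that of all genes -0.17. With the labels of that comparison exchanged, the median was -0.17, and Fos was the 1 gene at least 4-fold lower. Between the arrays labelled WT, 1 gene was at least 4-fold lower in the DKO comparison, Egr1, and 0 were higher, with backgrounds of 2.76% and 4.63% of 22137 genes. At 2-fold, Fosb, Junb and Egr1 were lower and Atf3 was higher there, beside 9.92% and 11.7%. The median was -0.71 there, beside -0.08 for all genes. With the labels of the G2KO comparison exchanged, the WT pair had 2 genes 4-fold lower in the DKO comparison, Fos and Egr1, and a median of -0.91.

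**Figure D2:**
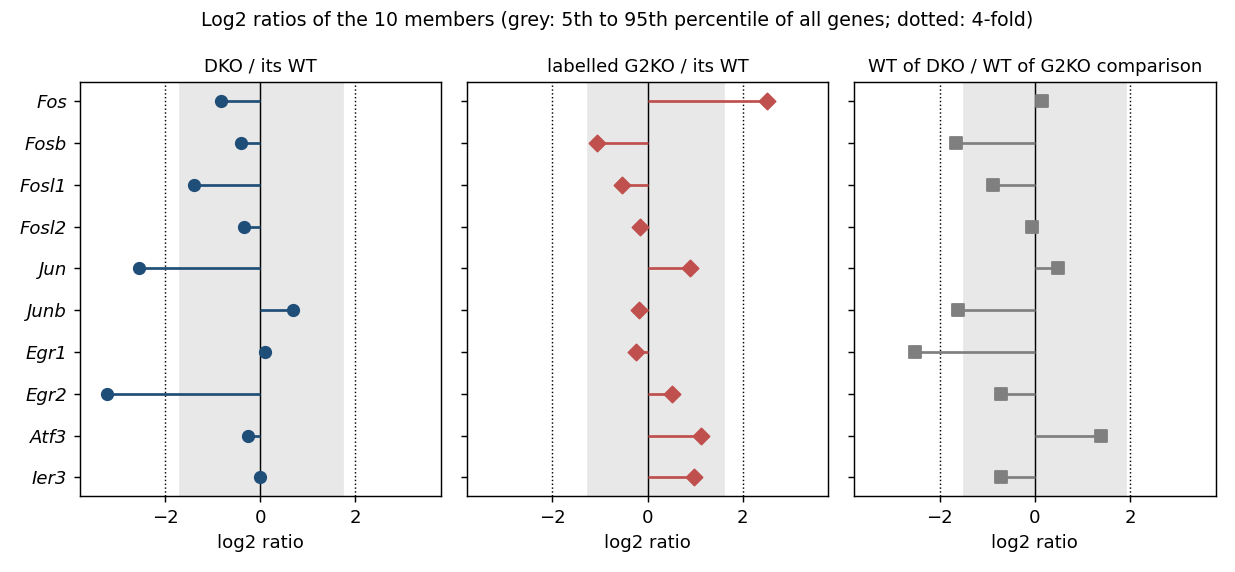
Log2 ratios of the 10 genes for DKO over its WT, the array labelled G2KO over its WT, and the WT of the DKO comparison over that of the G2KO comparison; grey bands span the 5th to 95th percentile of all genes and dotted lines mark 4-fold. Jun at -2.54 and Egr2 at -3.23 pass the lower line in the first panel, Fos at 2.52 passes the upper line in the second, and Egr1 at -2.52 passes the lower line in the third.

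The 3 genes past 4-fold in a knockout comparison were Fos, Jun and Egr2. The 250 bases before the start of Fos and of Jun are printed because both hold textbook regulatory elements of these genes. They come from RefSeq promoter windows on GRCm38.p6, which held 8 of the 10 genes and not Egr1 or Fosl1. Capitals mark matches to 8 motifs, searched on both strands. These were the CArG box of serum response factor, the cAMP response element TGACGTCA and its half-site TGACG, the AP-1 element TGACTCA with the variants TGACATCA and TTACCTCA known from Jun, the Egr element GCGTGGGCG, and the TATA box TATAAA. The half-site is contained in the full cAMP response element, so each match to the longer motif is also one to the shorter.
Fos, chr12:85473640-85473889, plus strand: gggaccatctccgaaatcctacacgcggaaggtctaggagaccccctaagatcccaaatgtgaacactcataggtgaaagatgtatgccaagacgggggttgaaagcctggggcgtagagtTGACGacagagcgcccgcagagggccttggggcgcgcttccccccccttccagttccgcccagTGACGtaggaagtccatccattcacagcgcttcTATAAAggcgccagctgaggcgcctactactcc
Jun, chr4:95052223-95052472, minus strand: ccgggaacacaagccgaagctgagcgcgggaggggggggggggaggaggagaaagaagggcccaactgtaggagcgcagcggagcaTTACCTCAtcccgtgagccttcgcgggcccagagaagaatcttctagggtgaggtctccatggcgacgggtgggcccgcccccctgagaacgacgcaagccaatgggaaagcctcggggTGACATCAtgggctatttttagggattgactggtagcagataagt

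The Fos window held TGACG starting 129 and 66 bases before the start, and TATAAA 33 bases before it. TGACG, the half-site, was in 17.8% of the upstream 250 bases of all 32851 windows, and TATAAA was in 12.4%. The Jun window held TGACATCA 45 bases before the start and TTACCTCA 164 bases before it. These are AP-1 and ATF type elements, and they were in 2.93% and 0.728% of all windows. Of the 8 members with a window, 5 had TGACG in any of their windows. None had the full cAMP response element, the AP-1 element or the Egr element, which were in 1.55%, 4.46% and 0.536% of all windows. These counts are per gene and the shares are per window. The CArG box was in 1.47% of all windows. Among the 8 members with a window, the searched bases held it for Egr2 alone, in 4 of its 5 windows. Egr1 and Fosl1 had no window and were not searched. Overlapping windows shared a site, and 30 bases around each of the different sites are shown, with the CArG box in capitals.
Egr2, chr10:67537484-67537513, plus strand: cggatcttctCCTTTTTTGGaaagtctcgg
Egr2, chr10:67537787-67537816, plus strand: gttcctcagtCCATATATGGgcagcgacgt

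Each of these sites lay inside a window and began 72 bases before its transcription start. The second site also began 73 and 133 bases before the transcription starts of other windows. These matches are letters in a window and not measured binding, and distal elements, more than 250 bases before the start, were not searched.

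Fos encodes the AP-1 subunit c-Fos. Its probe, at chr12:86817900-86817959 on mm9, was the only one of a member with 10 spots per array. The Fos level was 0.516 on the array labelled G2KO, 0.0901 on its WT, 0.0563 on DKO and 0.100 on its WT. The array labelled G2KO stood alone at the top, and the arrays labelled WT were close together. The log2 ratio was 2.52 for the array labelled G2KO against its WT, a 5.72-fold higher level, and -0.83 for DKO against its WT. Between the arrays labelled WT it was 0.15, which turned below 0 with quantile normalization (-0.02) or scaling to the median (-0.04). Against the WT of the DKO comparison in place of its own, the array labelled G2KO was still 5.15-fold higher. With the labels exchanged, Fos was 5.72-fold lower in G2KO than in its WT (log2 ratio -2.52), the same sign as for DKO, and the WT arrays differed by that 5.15-fold.

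The spots of the Fos probe give its error within an array. On the array labelled G2KO the 10 spots ranged from 0.495 to 0.539. On its WT the 9 spots kept ranged from 0.0807 to 0.101, on DKO the 9 kept ranged from 0.0517 to 0.0643, and on its WT the 10 spots ranged from 0.0906 to 0.103. The spots of the array labelled G2KO and those of DKO did not overlap with any other array, while the spots of the arrays labelled WT overlapped. With the spots marked as outliers kept, 1 on each of 2 arrays, the log2 ratio of DKO to its WT was -0.62. With them left out and the normexp background correction, that ratio was -0.41. Spots on 1 array share the same RNA and are no replicates of a culture.

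**Figure D3:**
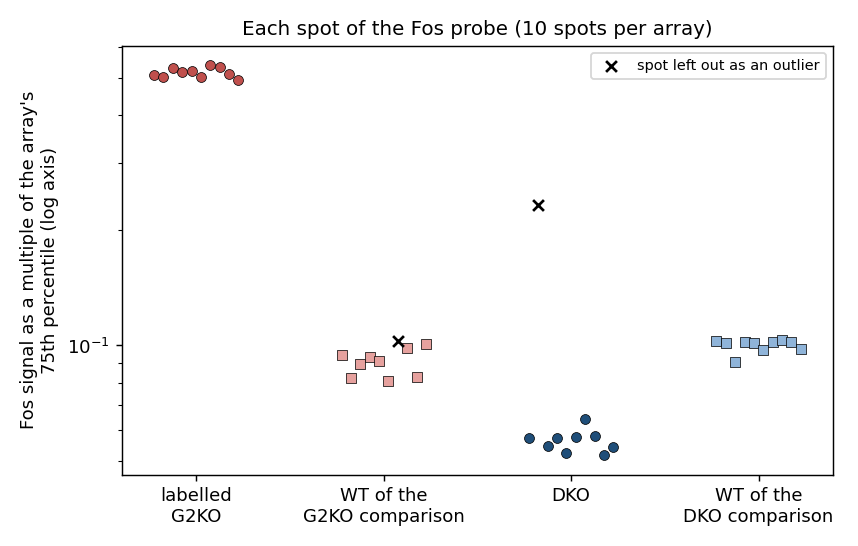
Each of the 10 spots of the Fos probe on each array, as a multiple of the 75th percentile of the array, on a log axis; crosses are spots left out as outliers. The spots of the array labelled G2KO lie between 0.495 and 0.539 and the kept spots of the other 3 arrays between 0.0517 and 0.103.

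Fosb, Fosl1 and Fosl2 encode the other Fos family proteins FosB, Fra-1 and Fra-2. The Fosb level was 0.205 on the array labelled G2KO, 0.428 on its WT, 0.103 on DKO and 0.136 on its WT. It was thus 2.08-fold lower on the array labelled G2KO than on its WT, and 3.16-fold lower on the WT of the DKO comparison than on that same WT. Fosl1 had levels of 2.46, 3.59, 0.742 and 1.95 in the same order of arrays. Fosl1 was lowest on DKO, 2.62-fold below its WT (log2 ratio -1.39), and 1.46-fold lower on the array labelled G2KO than on its WT.

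Fosl2 was the steadiest of the 10. Its brighter probe had levels of 5.77, 6.47, 4.91 and 6.24, a 1.32-fold range over the 4 arrays. Its dimmer probe, with levels between 0.0285 and 0.0404, had a log2 ratio of 0.03 for DKO against its WT where the brighter had -0.35. For the array labelled G2KO these were -0.50 and -0.17. The direction for the brighter probe in the G2KO comparison turned above 0 without scaling between arrays.

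Jun encodes c-Jun, the main partner of the Fos proteins. Its probe lies at chr4:94716928-94716987 on mm9. The Jun level was 18.1 on the array labelled G2KO, 9.77 on its WT, 2.36 on DKO and 13.8 on its WT. DKO stood apart below the other 3 arrays, which lay within a 1.86-fold range. The log2 ratio of DKO to its WT was -2.54, a 5.82-fold lower level, and to the WT of the G2KO comparison it was -2.05. Jun was 1.86-fold higher on the array labelled G2KO than on its WT (log2 ratio 0.89). Junb, whose protein can restrain c-Jun, had levels of 0.251, 0.286, 0.152 and 0.0939 in that order. It was higher on DKO than on its WT, 1.62-fold, opposite in sign to Jun, and the difference between the arrays labelled WT, 3.05-fold, was larger.

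Egr1 and Egr2 encode related zinc finger factors. The Egr1 level was 8.41 on the array labelled G2KO, 9.98 on its WT, 1.86 on DKO and 1.74 on its WT. Both arrays of the G2KO comparison were high and both arrays of the DKO comparison were low, by at least 4.52-fold, and within each comparison the levels were close. The log2 ratios were 0.09 for DKO and -0.25 for the array labelled G2KO (above 0 without scaling between arrays), and -2.52 between the arrays labelled WT. The reference array therefore set the value: against the WT of the other comparison, Egr1 was 5.37-fold lower on DKO and 4.82-fold higher on the array labelled G2KO. With that change of reference, 5 of the 10 genes, Fosb, Fosl1, Jun, Egr1 and Egr2, were 4-fold lower on DKO (3.82% of all genes), and 2, Fos and Egr1, were 4-fold higher on the array labelled G2KO (0.911%).

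The Egr2 probe lies at chr10:67004798-67004857 on mm9. The Egr2 level was 1.36 on the array labelled G2KO, 0.955 on its WT, 0.0623 on DKO and 0.586 on its WT. Egr2 had the widest range of the 10 genes, 21.9-fold from DKO to the array labelled G2KO, and its DKO signal was 8.53 times the lowest signal called well above background on that array. DKO was 9.40-fold below its WT (log2 ratio -3.23) and 15.3-fold below the WT of the G2KO comparison. The log2 ratio to its own WT was -2.57 after the normexp background correction. On the array labelled G2KO it was 1.43-fold above its WT.

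Atf3 ran in another order. Its level was 0.412 on the array labelled G2KO, 0.190 on its WT, 0.417 on DKO and 0.497 on its WT, so that the WT of the G2KO comparison was low and the other 3 were close. Atf3 was 2.17-fold higher on the array labelled G2KO than on its WT, and 1.19-fold lower on DKO than on its WT. Ier3 had levels of 4.96, 2.52, 1.54 and 1.55 in the same order. Ier3 was 1.97-fold higher on the array labelled G2KO than on its WT and at nearly the same level on both arrays of the DKO comparison, with a log2 ratio of -0.01 that was above 0 with quantile normalization, scaling to the median or normexp.

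Over the 10 genes, the arrays of the DKO comparison were both below the arrays of the G2KO comparison for 6: Fosb, Fosl1, Junb, Egr1, Egr2 and Ier3. They were both above for Atf3, by 1.01-fold. Among all genes well above background on the 4 arrays, 17.9% were below and 18.8% above in this way. Egr1 was the one member for which the gap reached 2-fold in the lower direction, beside 1.14% of all genes. This description was chosen after the values were seen. The arrays of each comparison lay next to each other on the slide, so comparison and position cannot be told apart.

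Genes that act with, upstream of or downstream of these 10 were taken from 7 lists. Beside their counts, 4.04% of all genes were 4-fold higher and 4.03% lower on DKO. On the array labelled G2KO these shares were 3.71% and 2.02%. Of 12 other AP-1 and small Maf genes, Batf was at least 7.12-fold higher on DKO than on its WT, where it was not well above background, and 0 were 4-fold lower. In the G2KO comparison 10 were compared. Of these, Batf3 (0.199 on the array labelled G2KO and 0.0344 on its WT) and Maf (0.254 and 0.0400) were at least 4-fold higher, and 0 were lower. Batf and Batf3 are AP-1 type factors of lymphoid and dendritic cells, and Maf is a large Maf factor. Both Batf3 and Maf were also higher on the WT of the DKO comparison than on that of the G2KO comparison, 4.22-fold and 20.5-fold.

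Of 43 other immediate early genes, 40 were compared for DKO. Dusp1, a phosphatase of MAP kinases, had levels of 0.541 on DKO and 3.65 on its WT, 6.74-fold lower. Errfi1, a feedback inhibitor of the EGF receptor, had levels of 0.877 and 5.66, 6.46-fold lower. Btg2, a p53-induced antiproliferative gene, had levels of 2.44 and 0.161, 15.2-fold higher, and no other gene of the list reached 4-fold by its brightest probe. A second probe of Ier5 was 4.28-fold lower on DKO, where the probe used was 2.85-fold lower. Between the arrays labelled WT, Btg2 was 5.83-fold and Dusp1 1.68-fold lower in the DKO comparison, and Errfi1 was 2.19-fold higher there. Against the WT of the G2KO comparison, DKO was 2.60-fold higher for Btg2, 11.3-fold lower for Dusp1 and 2.95-fold lower for Errfi1. The median log2 ratio of the list was -0.33, with 27 of 40 below 0, and the median of all genes was 0.03. In the G2KO comparison 41 were compared, with a median of 0.30 and 25 above 0, and the median of all genes was -0.17. The shares of all genes below or above 0 were not computed. The genes at least 4-fold higher were Zfp36 (at least 18.0-fold), Nr4a2 (4.18-fold) and Gem (4.05-fold), and 0 were 4-fold lower. Zfp36 encodes the mRNA decay factor tristetraprolin, Nr4a2 an orphan nuclear receptor and Gem a small GTPase. Between the arrays labelled WT, Zfp36 was at least 6.06-fold, Nr4a2 3.50-fold and Gem 1.58-fold higher in the DKO comparison.

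Among 25 upstream kinases and serum response regulators, Egfr, the EGF receptor, was 6.66-fold higher on DKO than on its WT (8.80 and 1.32), with log2 ratios between 2.73 and 2.90 over its 3 probes. Rps6ka1, the ERK-activated kinase RSK1, was 4.68-fold higher on the array labelled G2KO than on its WT, and 4.46-fold higher on the WT of the DKO comparison than on the same WT. No gene of the list was 4-fold lower in either, and the list medians were -0.03 and -0.06. Srf, which encodes serum response factor and is named here after its values were seen, had levels of 4.57 on the array labelled G2KO, 4.84 on its WT, 1.70 on DKO and 4.46 on its WT. By this probe Srf was 2.63-fold lower on DKO than on its WT. A second probe, with levels of 2.80, 2.47, 1.46 and 1.57 in the same order, disagreed, with 1.08-fold lower on DKO and the WT of the DKO comparison close to DKO.

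Of 8 ERK feedback genes, Spry2 was 4.70-fold lower on DKO (0.0711, and 0.334 on its WT), and Spry4 was 7.94-fold higher on the array labelled G2KO (0.265, and 0.0334 on its WT). Both encode Sprouty inhibitors of receptor tyrosine kinase signaling. The Egr corepressors Nab1 and Nab2 and the 6 integrated stress response genes had no member past 4-fold in either comparison. The medians of the stress response genes were -0.82 for DKO and -0.42 for the array labelled G2KO.

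The 12 AP-1 target genes held larger ratios. Mmp3, the gene of stromelysin-1, had levels of 6.43 on the array labelled G2KO, 0.0387 on its WT, 1.03 on DKO and 12.7 on its WT. It was 12.4-fold lower on DKO and 166-fold higher on the array labelled G2KO. Mmp9 was at least 9.97-fold lower on DKO, and Cd44, a hyaluronan receptor, was 5.76-fold lower. The other 3 probes of Cd44 had log2 ratios of -2.69, -1.68 and -1.47. In the G2KO comparison Mmp13 (146-fold), Mmp9 (at least 38.7-fold) and Mmp10 (7.92-fold) were higher as well, and none of the 12 was 4-fold lower. The WT of the G2KO comparison was low for these metalloprotease genes. Against it the WT of the DKO comparison was 329-fold higher for Mmp3, 137-fold for Mmp13, at least 10.2-fold for Mmp9 and 2.19-fold for Mmp10.

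**Figure D4:**
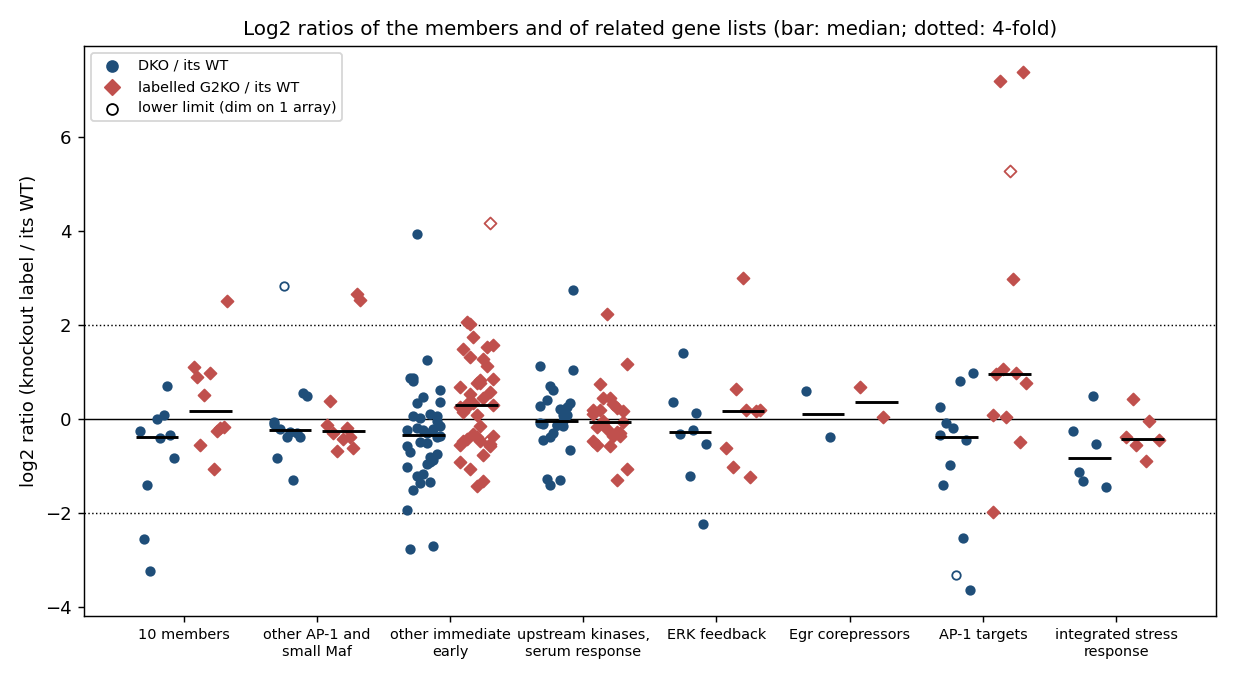
Log2 ratios of the 10 members and of 7 related gene lists for DKO over its WT (circles) and the array labelled G2KO over its WT (diamonds); each point is 1 gene, open symbols are lower limits, bars are medians and dotted lines mark 4-fold. The AP-1 targets hold the largest ratios of the G2KO comparison, with Mmp3 at 7.38, and the medians of the other immediate early genes are -0.33 and 0.30.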

How the data were processed

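The deposited values are signal intensities of single-color arrays, which the authors extracted with Agilent Feature Extraction (10.7.3.1 in the file headers, 10.5.1.1 in the submitters' processing notes) with correction for background and spatial trends, and without scaling between arrays. The deposited value table equals the scanner signals. From these, control spots and 107 to 140 outlier spots per array were left out, log2 signals were set relative to the array's 75th percentile (1586 to 2234 over all spots), and repeated spots were averaged. Probes dim on both arrays of a comparison were left out of it. A dim level was raised to the lowest signal well above background if below it, and the ratio is a lower limit. The brightest probe stood for a gene. No spot was saturated. The number of arrays limits the precision. With 1 array per group nothing was tested, and 4-fold stands in for a call. The calculation was tested on simulated copies of 1 array with small added noise and known shifts. This checks the arithmetic and not how far cultures differ. Probe positions and gene names are those of the files (mm9). G1KO MEFs were not analysed here.

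The members and lists were chosen with earlier results of these data known. The text names all members, Ccng1, Ccng2 and Xist, and up to 4 genes past 4-fold per list, direction and comparison. Alternatives covered scaling, background correction (limma 3.58.1, R 4.3.3), filters, probes, outlier spots, threshold, reference array and, added after the data were seen, exchanged labels of the G2KO comparison. Python 3.11.15, numpy 2.4.6 and pandas 2.3.3 were used.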

Additional observations from a re-analysis of the deposited data

Results flagged for a closer look

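As labelled, Fos, Jun and Egr2 had opposite signs in the knockout comparisons, with log2 ratios at least 2 apart. Junb, Egr1, Atf3 and Ier3 also had opposite signs, with smaller differences. For Junb and Egr1 the signs were the same without scaling between arrays, with log2 ratios of 0.30 and 0.25 for the array labelled G2KO. For Ier3 they were the same with quantile normalization, scaling to the median or normexp. The log2 ratio of DKO to its WT minus that of the array labelled G2KO to its WT was -3.34 for Fos, -3.43 for Jun and -3.75 for Egr2. The difference was not tested, since each comparison has 1 array per group. It depends on the labels of the G2KO comparison, whose direction opposes the study's for the genes named above. With these labels exchanged, the signs of Fos, Jun and Egr2 were the same in both comparisons. Their log2 ratios for G2KO were then -2.52, -0.89 and -0.51, and the differences were 1.69, -1.65 and -2.72. An exchange reverses every sign of that comparison, so genes opposite as labelled had to come out the same. Fosb, Fosl1 and Fosl2 had the same sign as labelled and became opposite. Their log2 ratios were then 1.06, 0.54 and 0.17 for G2KO, beside -0.40, -1.39 and -0.35 for DKO.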

How the results depend on the processing

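Of 240 values of single members under alternatives other than the reference array or exchanged labels, all 240 moved by less than the SD of 1.01 between the arrays labelled WT. Of 30 member ratios, 6 changed sign under at least 1 of these, the largest of them -0.25. Many of the 240 values could not move. All members were well above background on every array, so the filter settings left their values as they were. Only Fosl2 had a second probe and only Fos had repeated spots, so the probe and outlier settings could change only those genes. The reference array mattered more. Against the WT of the G2KO comparison, DKO had 5 members 4-fold lower and a median of -1.48, and against the mean of both WT arrays a median of -0.96. The array labelled G2KO had 2 members 4-fold higher and a median of 0.91 against the WT of the DKO comparison, and a median of 0.63 against the mean. Without scaling between arrays that median was 0.67 against its own WT, where the median of all genes shifted by 0.50. Between the arrays labelled WT the median of all genes shifted by 0.25 without scaling and by -0.18 with scaling to the median, and for DKO by 0.11 with normexp. At 2-fold, the array labelled G2KO had 2 higher and 1 lower, and the WT of the DKO comparison had 1 higher and 3 lower than the WT of the G2KO comparison. With the labels of the G2KO comparison exchanged, an alternative chosen after seeing the data, that comparison had 0 members 4-fold higher and 1 lower, a median of -0.17 and a log2 ratio of -2.52 for Fos, and the WT pair had 2 members lower. The cause was not tested. No paired analysis was possible because each group has 1 array. Of the probes used, those of Fos, Egr2, Fosb and Junb lay nearest to background on DKO, where ratios depend most on the correction.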
